A study of Mus musculus with 3 samples.

Results

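The genes described here act in mitosis: proteins of the centromere and kinetochore, the spindle checkpoint, the mitotic kinases and kinesins, cohesin and condensin, and the anaphase promoting complex. They were taken by symbol, as the oligos with exactly 1 gene symbol that matched a fixed pattern of mitotic gene names, and oligos of the same symbol were averaged. The pattern found 79 oligos of 73 genes, of 15096 symbols on the array, and 72 of the 73 had a value on all 3 arrays and were tested. No member was removed by a filter on low values. Anapc10, which lacked a value on array 2, was the member not tested. The 19635 genes tested in all were 14746 symbols and the oligos without exactly 1 symbol, each counted as a gene.

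The data came from 3 oligonucleotide arrays read in 2 colours, each hybridised with RNA from mouse kidney at 13.5 days post coitum (dpc) and from metanephric mesenchyme at 10.5 dpc, the embryonic tissue from which the nephrons of the kidney form. Both tissues came from CD1 mice labelled normal, were microdissected and pooled over both sexes, and their RNA was amplified before labelling. The 13.5 dpc kidney holds ureteric bud, early nephron structures, stroma and vessels besides mesenchyme, so the comparison sets a mixed organ against a dissected tissue. The value of each oligo is a log2 ratio of the 2 channels. The sources used here do not say which RNA was the numerator or which array carried swapped dyes, so each member is described as positive or negative in sign, and neither sign is read as kidney or mesenchyme. For orientation, Cdh16, a cadherin of kidney tubular epithelium, stood at 3.31 ± 0.48 (mean log2 ratio ± SD, n = 3 arrays) and Hbb-bh1, an embryonic globin, at -3.95 ± 0.32. The other globins in the list of red-cell markers lay nearer to 0, Hba-x at -0.21 ± 0.15, Hba-a1 at -0.084 ± 0.13 and Hbb-y at -0.062 ± 0.26. In whole tissue, fewer dividing cells and less of a transcript per dividing cell cannot be told apart.

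In mitosis, kinetochores assemble on the centromere of each chromosome and bind spindle microtubules, and the spindle checkpoint holds back the anaphase promoting complex until all chromosomes are attached. The complex then marks securin and cyclin B for destruction, separase cuts cohesin, and the sister chromatids part. Many of these genes are transcribed together late in the cell cycle, and their RNA is widely used as a measure of how much a tissue divides. The kidney rudiment grows by division in the nephron progenitors and the ureteric bud tips at these stages.

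Across the 19635 genes tested, arrays 1 and 2 correlated with Pearson's r = 0.464 and Spearman's rho = 0.52, while array 3 correlated with arrays 1 and 2 at r = 0.166 and 0.162, so array 3 stood apart. Across the 72 members r was 0.525 for arrays 1 and 2, 0.698 for arrays 1 and 3 and 0.414 for arrays 2 and 3, and without Anapc7 and Aurkc, the members of the most negative means, it was 0.739, 0.597 and 0.343. These correlations run across genes of the same arrays, which are not independent replicates, and are given as a description. Array 3 was the farthest from the mean of the other arrays for 33 of 72 members, against 45.6% of all genes. Of the 13 kidney markers listed, 10 had a positive mean and the array medians were 0.69, 0.64 and 0.42. Of 17 red-cell markers measured, 14 had a negative mean and the array medians were -0.44, -0.21 and -0.76. Negative means were counted for 12 of 17 somite and muscle markers, 8 of 14 neural and 10 of 17 gut and liver markers. Over all genes 49.7% had a negative mean, and 5, 6 and 7 genes of these lists, in that order, had a positive mean. The part of other cell types in the values of the mitotic genes was not tested. The array gives ratios and no level of RNA, so genes cannot be ranked by abundance.

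**Figure D1:**
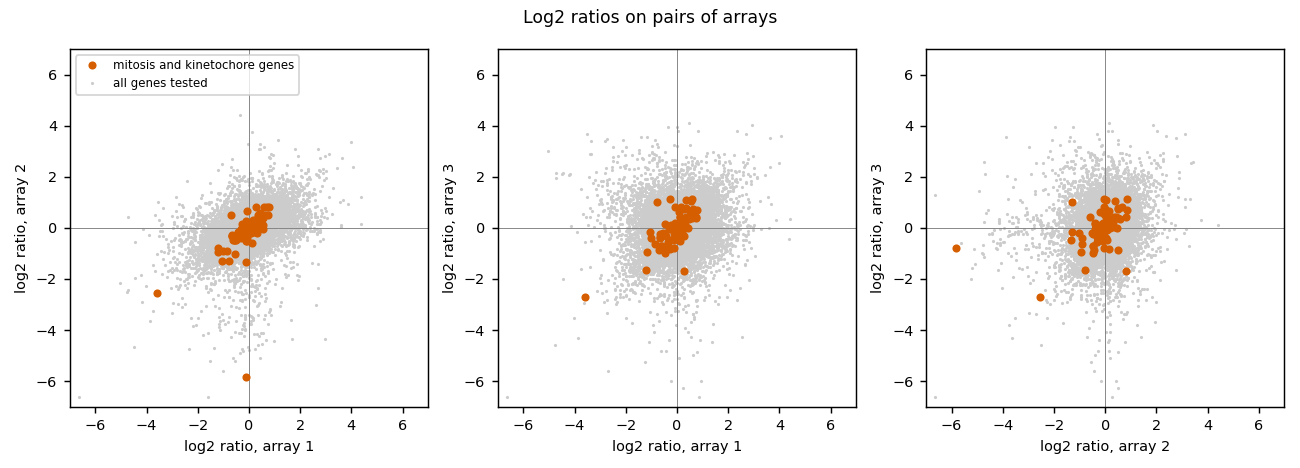
Deposited log2 ratios on each pair of arrays, with the mitosis and kinetochore genes as orange points and all 19635 genes tested as grey points. The members lie closer to 0 than the grey cloud reaches, with Anapc7 between -3.60 and -2.53 on all 3 arrays and Aurkc at -5.84 on array 2.

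As a group the members stood on both sides of the ratio. The members were chosen with earlier results of these data known. All genes include oligos without exactly 1 symbol, while every member is a named gene, and shares over named genes alone are not given here. Shares of members beside shares of all genes are therefore a description. Of 72 tested, 32 had a positive mean, as did 50.3% of all genes, and 40 had a negative mean, as did 49.7% of all genes. The median of their means was -0.055 on the log2 scale, with array medians of -0.040, -0.038 and 0.0060. The median over all genes tested was 0.0020. In the test across all genes (limma, Benjamini-Hochberg adjusted p under 0.05) 0 members passed, where 0.00509% of all genes did. At an unadjusted limma p under 0.05 there were 24 members, or 33.3%, against 16.8% of all genes. They divided into 10 on the positive side, where the background was 8.99%, and 14 on the negative side, where it was 7.83%. These counts changed when an array was left out, which also leaves fewer arrays to the test. Without array 1 they were 3 positive and 5 negative, without array 2 they were 4 and 6, and without array 3 they were 6 and 12. Over all genes the share with an unadjusted p under 0.05 was then 8.53%, 10.5% and 19.9%. For members it was 11.1%, 13.7% and 25% in the same order. Without array 1 or array 2 the member share was thus near that of all genes, and each gap was smaller than with all 3 arrays.

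The median size of a member's mean was 0.33 (log2), against 0.25 over all genes, and the median SD over the arrays was 0.21, against 0.32. A mean of 1 or more was reached by 0 members on the positive side (2.35% of all genes) and by 4 on the negative side (2.98%; 5.33% on either side), namely Anapc7, Aurkc, Kif22 and Ncaph2. All 3 arrays shared a sign for 46 members and for 41.3% of all genes. Of the members these were 21 positive (29.2%, against 21.5% of all genes) and 25 negative (34.7%, against 19.9%). The labels leave unsaid whether each array had its own dissection, so a p-value reflects no more than array-to-array spread, possibly technical.

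**Figure D2:**
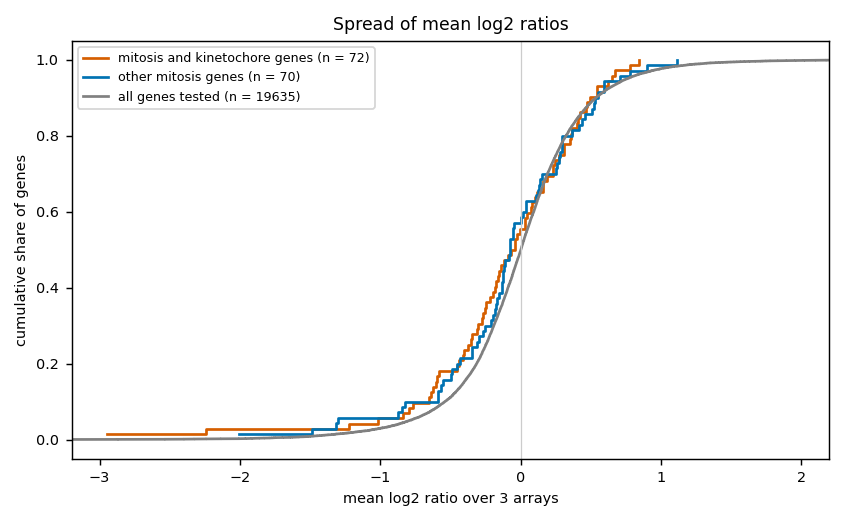
Cumulative share of genes by mean log2 ratio over the 3 arrays, for the 72 mitosis and kinetochore genes (orange), 70 other mitosis genes (blue) and all 19635 genes tested (grey). The median of the orange curve is -0.055 and that of the grey curve 0.0020, and the orange curve reaches from -2.94 to 0.84.

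Mki67, which encodes the Ki-67 protein of dividing cells that coats mitotic chromosomes, had log2 ratios of 0.79, 0.84 and 0.72 on arrays 1, 2 and 3. The arrays lay within a narrow band on the positive side, at 0.78 ± 0.062 (SD, n = 3), a 1.72-fold difference (limma, unadjusted p = 0.00424, adjusted p = 0.133). Among the members it was exceeded by Smc3 alone.

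Promoters of late cell-cycle genes are known for pairs of CCAAT boxes, bound by NF-Y, together with a CHR element, bound by the MuvB complex. RefSeq promoter windows (GRCm38.p6, 250 bases before to 50 after a start) were found for 66 of 73 members and searched on both strands for the CCAAT box, for the CHR cores TTTGAA and TTCGAA, and for the E2F cores TTTGGCGC, TTTCCCGC and TTTGGCGG. None of these words contains another. A CHR core was in 51.5% of member promoters and 21.7% of the promoters of 27025 genes, a CCAAT box in 57.6% and 41.1%, and an E2F core in 18.2% and 2.39%. Both a CHR core and at least 2 CCAAT boxes were in 14 of 66 member promoters (21.2%), against 2.68% of all genes. The 3 sequences below are shown because these genes hold that arrangement, had an unadjusted p under 0.05 and lie on both sides of the ratio: Mki67 and Spc25 at 0.78 and 0.40, Kif22 at -1.22. Aurka and Ncapd2 also met these conditions and are not printed, since too few bases of their windows lie outside the annotated gene. Each printed sequence runs 5′ to 3′ toward the gene, ends where the annotated gene begins, and has the matched words of either strand in capitals (ATTGG is the CCAAT box, and TTCAAA the first CHR core, read on the other strand).
Mki67 (chr7:135716451-135716629, - strand): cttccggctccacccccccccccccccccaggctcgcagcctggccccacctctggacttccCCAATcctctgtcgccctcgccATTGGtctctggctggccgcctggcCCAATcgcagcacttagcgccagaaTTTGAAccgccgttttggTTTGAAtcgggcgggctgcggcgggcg
Spc25 (chr2:69206214-69206463, - strand): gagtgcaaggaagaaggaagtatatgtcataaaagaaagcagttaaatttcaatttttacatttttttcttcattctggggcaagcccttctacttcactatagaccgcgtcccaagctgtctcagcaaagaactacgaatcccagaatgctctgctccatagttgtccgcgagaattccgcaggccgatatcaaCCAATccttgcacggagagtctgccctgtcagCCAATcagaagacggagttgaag
Kif22 (chr7:127042468-127042670, - strand): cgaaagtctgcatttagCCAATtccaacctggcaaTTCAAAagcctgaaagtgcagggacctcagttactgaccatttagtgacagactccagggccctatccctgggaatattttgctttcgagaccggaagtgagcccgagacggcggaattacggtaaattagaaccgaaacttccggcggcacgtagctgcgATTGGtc

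Positions are counted from the start that each window surrounds. The annotated gene begins 71 bases before that start for Mki67 and 47 bases before it for Kif22, and the printed stretches end there. The Mki67 window holds 3 CCAAT boxes at 188, 166 and 141 bases before the start, followed by CHR cores at 116 and 98. In Spc25 the CCAAT boxes stand at 55 and 23 bases before the start and the CHR core 25 bases after it, outside the printed stretch. Kif22 has CCAAT boxes at 233 and 54 and CHR cores at 215 and 17 bases before the start, the last of these outside the printed stretch. The 14 genes with this arrangement had a median mean log2 ratio of -0.12, with 6 positive and 8 negative, from -1.22 for Kif22 to 0.78 for Mki67. The 51 tested members without it had a median of -0.026, with 24 positive and 27 negative. A match of letters is not a binding site, and members with the arrangement were found on both sides.

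**Figure D3:**
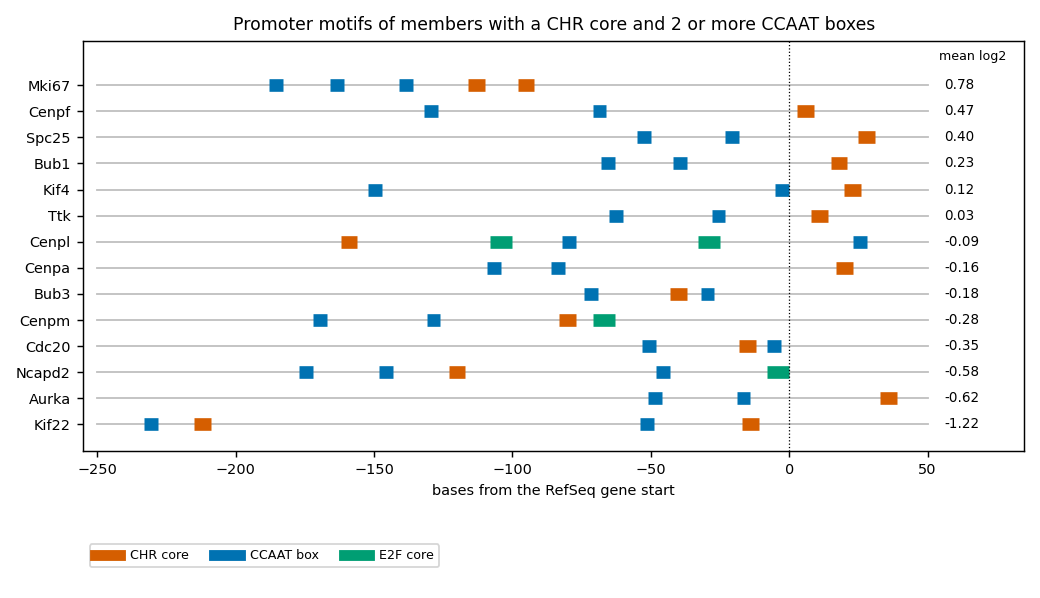
Positions of CHR cores (orange), CCAAT boxes (blue) and E2F cores (green) in the 14 members with a CHR core and at least 2 CCAAT boxes. Positions are in bases from the RefSeq start that each window surrounds, and genes are ordered by mean log2 ratio (right). Genes with the same arrangement run from 0.78 for Mki67 to -1.22 for Kif22.

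At the centromere, 22 members were tested, 9 with a positive and 13 with a negative mean (median -0.064). At an unadjusted p under 0.05 there were 4 positive (18.2%, against 8.99% of all genes) and 5 negative (22.7%, against 7.83%), and 0 passed over all genes (limma). Cenpa, the histone H3 variant that marks the centromere, had 0.11, -0.082 and -0.51 on arrays 1, 2 and 3 and a mean of -0.16 ± 0.32, with arrays on both sides of 0; without array 3 its mean was 0.016. Cenpc1, which encodes CENP-C, the protein that links this nucleosome to the outer kinetochore, had 0.62, 0.51 and 0.74. All of its arrays were positive, at 0.62 ± 0.12 (limma, unadjusted p = 0.0114, adjusted p = 0.181).

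The proteins that sit with CENP-C on the inner kinetochore form sub-complexes. The means of the subunits measured had mixed signs in the CENP-H/I/K/M, CENP-O/P/Q/U and CENP-T/W/S/X groups, and both were negative in CENP-L/N. In the CENP-H/I/K/M group, Cenpk had 0.56, 0.37 and 1.08 (mean 0.67 ± 0.36; limma, unadjusted p = 0.0249, adjusted p = 0.232). Its partner Cenpm stood at -0.28 ± 0.21, and Cenph at -0.0056 ± 0.53, with arrays on both sides of 0. In the CENP-O/P/Q/U group, Cenpu had -1.07, -1.30 and -0.15 (mean -0.84 ± 0.61; limma, unadjusted p = 0.0342, adjusted p = 0.26), where array 3 was much nearer to 0 than the others. Cenpo of that group had -0.68, -0.28 and -0.41 (mean -0.45 ± 0.21, unadjusted p = 0.0448), while Cenpp and Cenpq had positive means of 0.31 and 0.16 and mixed arrays.

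Of the CENP-T/W/S/X group, whose proteins have histone folds, Cenpw had 0.36, 0.51 and 0.77 and stood at 0.55 ± 0.21 (limma, unadjusted p = 0.0249, adjusted p = 0.232). Cenps was on the other side at -0.36, -0.30 and -0.56, with a mean of -0.41 ± 0.14 (unadjusted p = 0.0487, adjusted p = 0.295), and Cenpx had a mean of 0.37 with array 2 at -0.028. Cenpn, whose product reads the Cenpa nucleosome, had -0.55, -1.03 and -0.21. Its mean of -0.60 ± 0.41 (unadjusted p = 0.0438) was -0.38 without array 2, and its partner Cenpl stood at -0.09 ± 0.29. Cenpb, which binds a motif of centromeric repeats, and Cenpv had means of -0.22 and 0.10.

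The NDC80 complex is the rod that holds the microtubule. Of its microtubule-binding subunits, Ndc80 had -0.68, -0.30 and -0.22 (mean -0.40 ± 0.24; limma, unadjusted p = 0.0727, adjusted p = 0.344). Nuf2 had -0.49, -0.48 and -0.99 (mean -0.65 ± 0.29; limma, unadjusted p = 0.0199, adjusted p = 0.215). Both subunits were negative on every array. Of the subunits at the inner end, Spc25 had 0.35, 0.44 and 0.42, a tight positive group at 0.40 ± 0.044 (unadjusted p = 0.0433, adjusted p = 0.283), and Spc24 had mixed arrays around -0.037 ± 0.20. The arrays of Spc25 did not overlap those of Ndc80 or Nuf2. Cenpe, a kinetochore motor, had -0.26, 0.15 and -0.81 (mean -0.30 ± 0.48). Cenpf, a large protein of the outer corona, had -0.062, 0.66 and 0.82 (mean 0.47 ± 0.47). Neither gene held its sign on all 3 arrays.

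Of the 6 checkpoint genes, 4 had a positive and 2 a negative mean, and 1 had an unadjusted p under 0.05, a share of 16.7% against 16.8% of all genes. That gene was Mad1l1, which brings Mad2 to unattached kinetochores, with 0.72, 0.81 and 0.43 and a mean of 0.65 ± 0.20 (limma, unadjusted p = 0.0129, adjusted p = 0.187). Mad2l1, the Mad2 protein itself, lay on the other side with -0.31, -0.41 and -0.047 (mean -0.26 ± 0.19, unadjusted p = 0.178). Bub1, a kinase that recruits other checkpoint proteins, had 0.18, 0.30 and 0.22 (mean 0.23 ± 0.061). Bub1b, which encodes BubR1 of the mitotic checkpoint complex, had 0.36, 0.36 and 0.024 (mean 0.25 ± 0.19), and both were positive throughout. Bub3, their WD-repeat partner, had -0.26, -0.29 and -0.0014, all negative, at -0.18 ± 0.16. Ttk, the kinase Mps1 that starts checkpoint signalling, stayed near 0 with 0.043, -0.022 and 0.068. With an SE of 0.14 for Ttk in the limma fit, small differences in it were not detectable with 3 arrays.

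The chromosomal passenger complex corrects faulty attachments and directs cytokinesis. Incenp, its scaffold, had 0.73, 0.51 and 0.40 and a mean of 0.55 ± 0.16 (limma, unadjusted p = 0.0212, adjusted p = 0.219). Its kinase Aurkb had -0.13, 0.26 and 0.11 (mean 0.079 ± 0.20). Survivin, Birc5, had 0.10, 0.076 and -0.077 (mean 0.032 ± 0.095), and both genes had arrays on both sides of 0. Borealin, Cdca8, the remaining subunit and not a member by name, had -1.18, -1.38 and -1.40, the smallest p among the other mitosis genes (mean -1.32 ± 0.12; limma, unadjusted p = 0.000578, adjusted p = 0.106). Aurkc, an aurora kinase known from germ cells, had -0.11, -5.84 and -0.77. Its mean of -2.24 ± 3.13 rests on array 2, without which it was -0.44; on that array 20 genes stood below -4 while both other arrays lay within 1 of 0, against 1 such gene on array 1 and 13 on array 3.

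A further list of 9 genes held kinases and phosphatases of the spindle pole and mitotic entry, all polo-like kinases measured, and Tpx2. Of these, 7 had a negative mean (median -0.31), where 49.7% of all genes did. The 3 with an unadjusted p under 0.05 were Aurka, Tpx2 and Plk2, all negative (33.3%, against 7.83% of all genes and 16.8% on either side). Aurka, the kinase of the spindle poles, had -0.56, -0.46 and -0.86 (mean -0.62 ± 0.21; limma, unadjusted p = 0.0158, adjusted p = 0.203). Tpx2, the protein that activates it on spindle microtubules, had -0.62, -0.47 and -0.72 (mean -0.60 ± 0.13; limma, unadjusted p = 0.0131, adjusted p = 0.188). Both were negative on every array. Plk2, a polo-like kinase active earlier in the cell cycle, had -1.02, -0.89 and -0.40 (mean -0.77 ± 0.33; limma, unadjusted p = 0.013, adjusted p = 0.188). Plk1, the polo-like kinase of mitosis, had -0.12, 0.04 and -0.39 averaged over its oligos, at -0.15 ± 0.22. Its oligos differed in sign, with means of -0.35 and 0.043. The phosphatases that free Cdk1 of its inhibitory phosphates were negative on every array. Cdc25a had -0.44, -0.17 and -0.33 (limma, unadjusted p = 0.104). Cdc25b had -0.33, -0.031 and -0.78 (unadjusted p = 0.131). Cdc25c had -0.16, -0.18 and -0.022 (unadjusted p = 0.452), the smallest in size of the 3. Plk3, with mixed arrays, and Plk4, the kinase of centriole duplication, had positive means of 0.27 and 0.49, in which array 3 stood highest at 1.14 and 1.09.

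The mitotic kinesins, motors of the spindle, likewise had 7 of 9 negative means (median -0.25), where 49.7% of all genes did. Both kinesins with an unadjusted p under 0.05 were negative (22.2%, against 7.83% of all genes and 16.8% on either side). Kif22, the chromokinesin Kid that pushes chromosome arms toward the spindle equator, had -1.22, -0.78 and -1.65 and a mean of -1.22 ± 0.43, a 2.33-fold difference (limma, unadjusted p = 0.00395, adjusted p = 0.131). Kif2c, the microtubule depolymerase MCAK, had -0.86, -0.89 and -0.64, closely grouped at -0.80 ± 0.13 (limma, unadjusted p = 0.00474, adjusted p = 0.14). Kif11, the Eg5 motor that separates the spindle poles, had -0.23, -0.079 and 0.10, on both sides of 0. The other kinesins had means from -0.64 for Kif23, the cytokinesis motor MKLP1, to 0.35 for Kif15. For Kif15 the oligos disagreed, with means of 0.69, 0.38 and -0.014 for its 3 oligos.

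**Figure D4:**
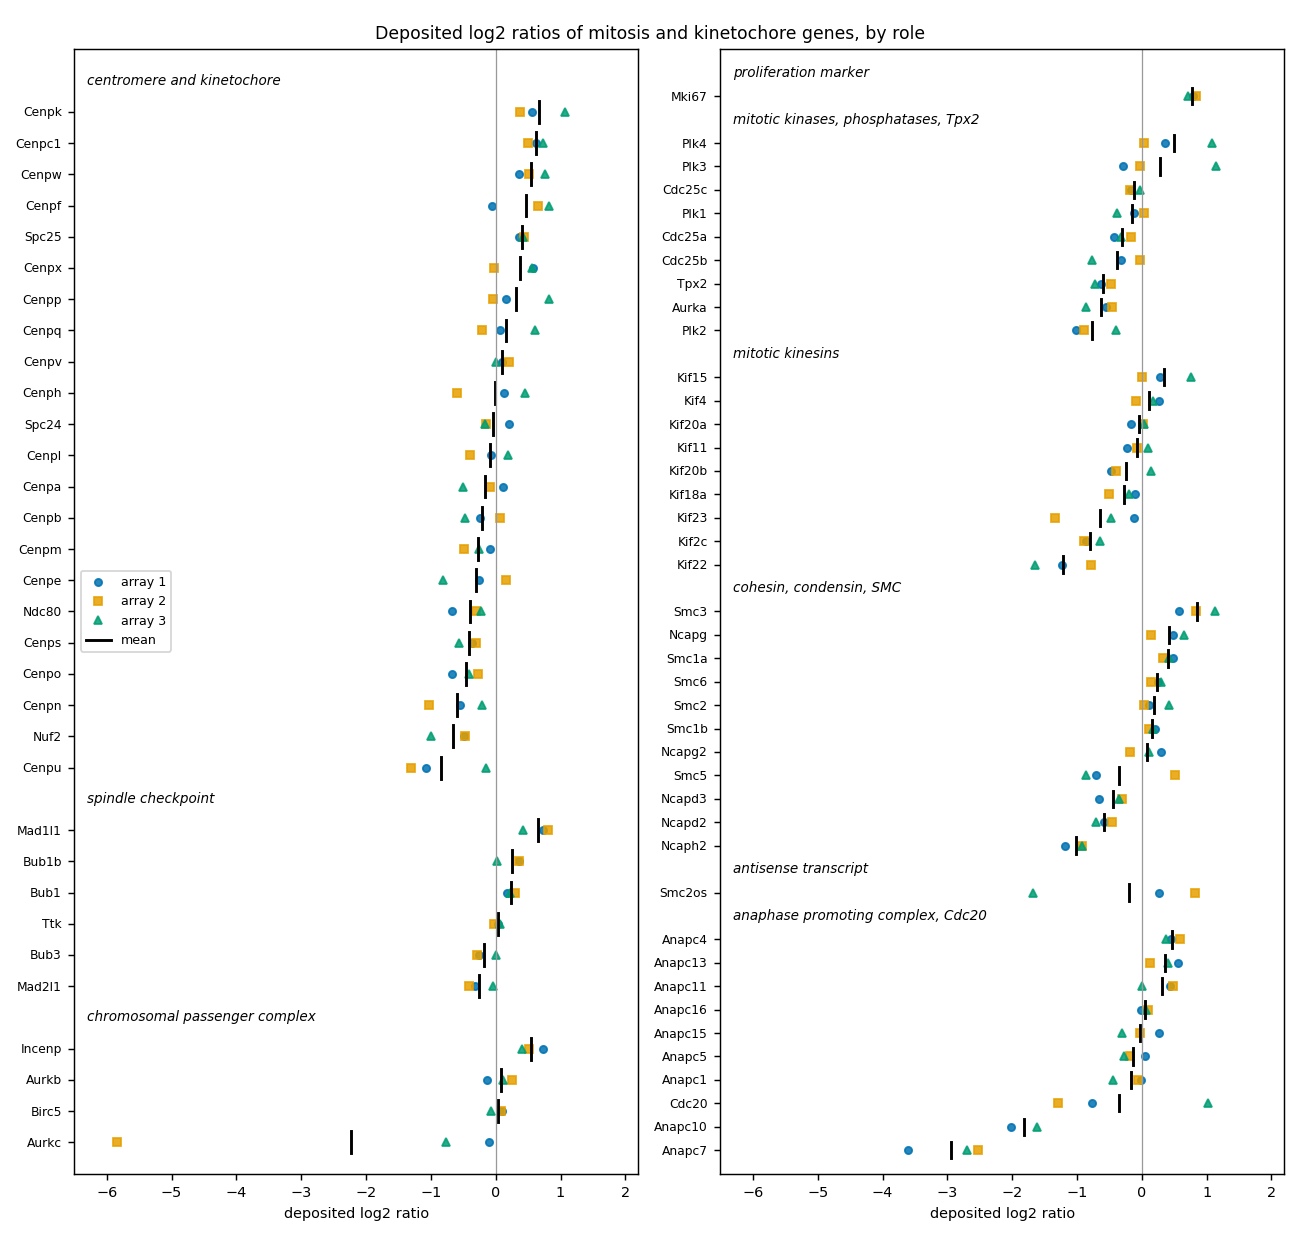
Deposited log2 ratio of each mitosis and kinetochore gene on arrays 1, 2 and 3 (points), with the mean of the arrays (black bar), grouped by role and ordered by mean. Mki67 and Spc25 show arrays that nearly coincide, Cdc20 and Smc2os arrays on opposite sides, and Aurkc a mean set by array 2; Anapc10 has no value on array 2.

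Cohesin holds sister chromatids together, and both of its SMC subunits of dividing somatic cells lay on the positive side. Smc1a had 0.48, 0.33 and 0.42 (mean 0.41 ± 0.075, limma unadjusted p = 0.0431, adjusted p = 0.283) and Smc3 had 0.57, 0.84 and 1.13, the highest mean of all members at 0.84 ± 0.28 (limma, unadjusted p = 0.00715, adjusted p = 0.154). Smc1b, the meiotic form, was positive and small at 0.16 ± 0.048.

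Condensin, which compacts mitotic chromosomes, lay on both sides. Ncaph2, the kleisin of condensin II, had -1.19, -0.93 and -0.93 and a mean of -1.02 ± 0.15, a 2.02-fold difference (limma, unadjusted p = 0.00194, adjusted p = 0.11). Ncapd3 of the same complex had -0.67, -0.31 and -0.35 (mean -0.44 ± 0.20, unadjusted p = 0.0471), while Ncapg2 had mixed arrays around 0.077 ± 0.24. In condensin I, Ncapd2 had -0.58, -0.46 and -0.70 (mean -0.58 ± 0.12; limma, unadjusted p = 0.015, adjusted p = 0.198) and Ncapg was positive on every array at 0.43 ± 0.26 (unadjusted p = 0.0656). Their common subunit Smc2 had 0.11, 0.036 and 0.41 averaged over oligos whose own means were 0.41 and -0.041. Smc5 and Smc6, partners in DNA repair, had means of -0.35 and 0.23; the oligos of Smc6 had means of 0.61 and -0.15, and Smc5 had array 2 at 0.51 against -0.71 and -0.86 on arrays 1 and 3. Smc2os, a transcript from the opposite strand at Smc2 that the pattern also matched, had 0.26, 0.82 and -1.68, and which strand its oligo detects is unknown here.

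In the anaphase promoting complex, the ubiquitin ligase of mitotic exit, 8 subunits among the members were tested, 4 with a positive and 4 with a negative mean. The subunits Cdc26 and Cdc16, not members by name, were negative on every array. Cdc26 had -0.90, -0.44 and -1.12 (mean -0.82 ± 0.35; limma, unadjusted p = 0.0113, adjusted p = 0.18), and Cdc16 stood at -0.078 ± 0.068. Anapc7, a subunit of its substrate-binding arm, had -3.60, -2.53 and -2.70, the most negative member on average at -2.94 ± 0.58, a 7.7-fold difference (limma, unadjusted p = 0.000221, adjusted p = 0.106). It ranked 19629 of 19635 genes from the positive end, and its value rests on 1 oligo. Anapc10, which helps hold substrates, had -2.01 on array 1 and -1.61 on array 3 and no value on array 2; with genes on 2 arrays admitted its limma adjusted p was 0.126. Anapc4, a platform subunit, lay on the other side with 0.45, 0.59 and 0.37 (mean 0.47 ± 0.11; limma, unadjusted p = 0.0301, adjusted p = 0.248). The catalytic RING subunit Anapc11 stood at 0.31 ± 0.26 and Anapc13 at 0.36 ± 0.22, both positive on every array. The scaffold Anapc1 stood at -0.17 ± 0.24, and Anapc5, Anapc15 and Anapc16 had means from -0.14 to 0.047. Cdc20, the activator that the checkpoint restrains, had -0.77, -1.30 and 1.02; array 3 opposed arrays 1 and 2, and the mean was -0.35 ± 1.22, or -1.03 without array 3.

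**Figure D5:**
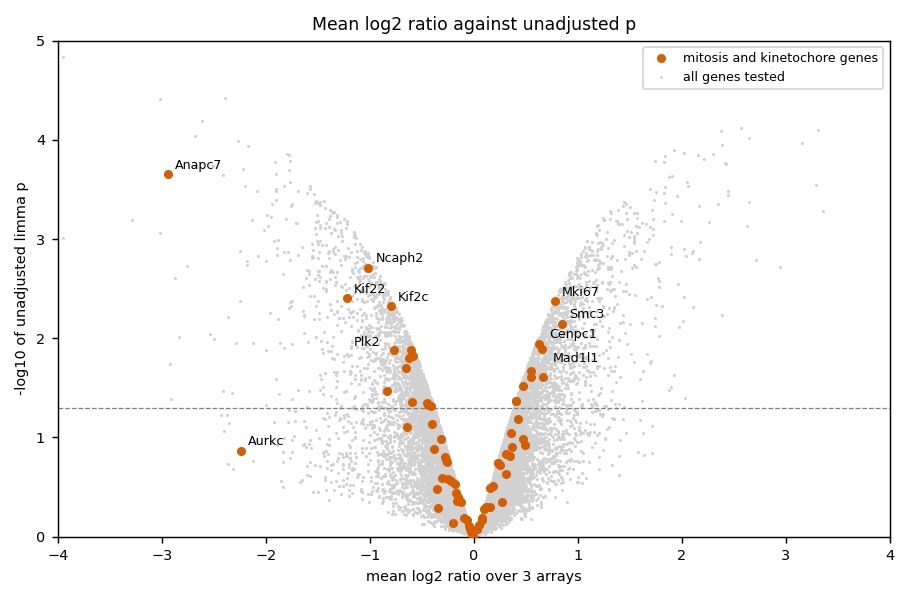
Mean log2 ratio over the 3 arrays against -log10 of the unadjusted limma p, with the mitosis and kinetochore genes as orange points and all genes tested as grey points; the dashed line marks an unadjusted p of 0.05. Of the members, 10 lie above the line on the positive side, led by Mki67 and Smc3, and 14 on the negative side, led by Anapc7 and Ncaph2.

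A list of other genes of mitosis and of the cell cycle more widely, not matched by the pattern, was also divided between the sides. It too was chosen with earlier results of these data known. Of 70 genes tested 30 had a positive and 40 a negative mean (median -0.078), 0 passed limma over all genes, and 23 had an unadjusted p under 0.05, 13 positive (18.6%, against 8.99% of all genes) and 10 negative (14.3%, against 7.83%). On the positive side the genes of smallest p were Cks2, a Cdk-binding protein, at 1.11 ± 0.33, Hjurp, the chaperone that loads Cenpa, at 0.78 ± 0.25, Esco2, an acetyltransferase of Smc3, at 0.90 ± 0.47, and Nusap1, a spindle protein, at 0.60 ± 0.25 (limma unadjusted p from 0.00325 to 0.0221). On the negative side they were Cdca8, Haus5, a subunit of the augmin complex, at -1.49 ± 0.47, Cdca7 at -0.87 ± 0.17 and Ccnf, the F-box protein cyclin F, at -1.30 ± 0.57 (unadjusted p from 0.000578 to 0.00623).

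Ccna2, the cyclin A of dividing somatic cells, had -0.55, -0.90 and -0.31 (mean -0.59 ± 0.30; limma, unadjusted p = 0.0291, adjusted p = 0.245). Ccnb2, a B-type cyclin of mitosis, had -0.45, -0.45 and -0.14 (mean -0.35 ± 0.18; limma, unadjusted p = 0.0869, adjusted p = 0.367). Both were negative on every array. Top2a, the topoisomerase that untangles sister chromatids, had 0.79, -0.092 and 0.19, with array 1 above the others. Foxm1, a transcription factor of late cell-cycle genes, had -0.23, -4.82 and -0.96; as for Aurkc, array 2 set its mean of -2.00 ± 2.47.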

How the data were processed

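RNA of 13.5 dpc kidney and of 10.5 dpc metanephric mesenchyme was compared on 3 arrays. Per the labels' protocols the authors scanned them with ImaGene 5.5 and normalized by print-tip loess and between arrays; a lowess fit over 20% of the data corrected the control channel, whose values were raised to at least 10. The deposited values are log2 ratios: 2 to the power of a value fell on a ratio with 3 decimals (tolerance 0.01 of the last decimal) for 99.7% to 99.8% of values. Intensities, background and detection were not analysed here, so no probe could be judged too dim or saturated, and scan batches were not analysed here.

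Of 22702 spots, 881 control spots were left out (856 held no value), and 21433 to 21477 of 21821 library oligos had a value on each array. Of these oligos 16658 were paired with 1 symbol, 137 with several and 5026 with none listed, in the platform annotation; 72 of 73 members matched RefSeq by gene ID. Oligos of a symbol were averaged, and each oligo without exactly 1 symbol was kept as a gene of its own. Apart from Cenpv, Kif15, Plk1, Smc2 and Smc6, each member rests on 1 oligo. No oligo was checked against the sequence of its gene. The ratio was tested against 0 with limma 3.58.1 (R 4.3.3), adjusted by Benjamini-Hochberg over 19635 genes with a value on all 3 arrays. The median SE of a gene's mean was 0.19, and the number of arrays limits the precision. An exact sign-flip test on 3 arrays cannot give a two-sided p under 0.25. The fit was also run on data simulated from its own fitted spread with independent arrays. That run cannot show whether the fit suits the arrays used here.

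Array values are given for members with an unadjusted p under 0.05 and for a list of defining genes. Of the other mitosis genes the 4 of smallest p on each side are named, with Ccna2, Ccnb2, Top2a, Foxm1, Cdc26 and Cdc16. Espl1, Smc4 and Ccnb1 were not analysed here. The members and lists were chosen with earlier results of these data known. Value columns were all used. Alternatives were oligos tested singly, centring, scaling, genes on 2 arrays admitted, array weights, robust moderation, lowest ratios set to missing and each array left out.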

Additional observations from a re-analysis of the deposited data

How the results depend on the processing

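The number of members passing the adjusted threshold (limma) was 0 under all 10 alternatives, with a lowest adjusted p between 0.0714 (array weights) and 0.486 (without array 1). The single gene that passed over all genes, Slc2a1, stood at the lowest deposited log2 ratio, -6.64, on all 3 arrays. Its pass was lost (0 genes) with arrays centred and scaled, with the lowest ratios set to missing, and without any 1 array. Leaving out each array in turn, members with an unadjusted p under 0.05 numbered 3 to 6 on the positive side and 5 to 12 on the negative side, and the median mean log2 ratio of the members lay between -0.10 (without array 1) and -0.026 (without array 2). The other alternatives kept these counts within 1.5 times. With an array left out, 11.1% to 25% of members had an unadjusted p under 0.05 (limma), against 8.53% to 19.9% of all genes. With all 3 arrays these shares were 33.3% and 16.8%. Of the members, 58 kept their sign under every alternative that gave them a value, among them all 24 with an unadjusted p under 0.05 (limma). These 24 had the same sign on all 3 arrays. For any such member, leaving out or weighting arrays could not change the sign, so its keeping the sign there is no test. With oligos tested singly 67 members had a value; Cenpv, Kif15, Plk1, Smc2 and Smc6 had none, and the oligos of Kif15, Plk1, Smc2 and Smc6 differed in sign. With array weights, Anapc15 had 0.035 and Smc2os 0.25, against negative means with equal weights. Without 1 array, sign changes gave the following ranges of the mean log2 ratio. Anapc15 lay between -0.17 and 0.12, Aurkb lay between -0.011 and 0.18 and Birc5 lay between -0.0006 and 0.086. Cdc20 lay between -1.03 and 0.13, Cenpa lay between -0.30 and 0.016 and Cenph lay between -0.23 and 0.29. Cenpl lay between -0.23 and 0.0599, Cenpq lay between -0.0701 and 0.34 and Kif11 lay between -0.15 and 0.011. Kif20a lay between -0.076 and 0.02, Ncapg2 lay between -0.035 and 0.21 and Plk3 lay between -0.16 and 0.55. Smc2os lay between -0.71 and 0.54 and Spc24 lay between -0.15 and 0.028. The cause was not tested. No paired analysis was possible because the arrays form 1 group, with no other group to pair them with; each ratio is itself a difference within its array, and the test against 0 uses it as such. The ratios carry no depth or signal over background, so dim probes could not be separated from bright ones.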
